A study of Mus musculus with 2 samples.

Results

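The barcodes described here are the GABAergic lineage of the ventral forebrain in single-cell RNA libraries of mouse brain at stage E12.5. They were chosen by the genes detected in them, with at least 1 UMI (unique molecular identifier, a tag that counts 1 captured transcript) counting as detected. A barcode had at least 1000 UMIs, at least 500 genes and at most 20% mitochondrial UMIs. It had at least 1 of Gad1 and Gad2, at least 2 of Dlx1, Dlx2, Dlx5 and Sp9, and at least 2 of the neuron genes Tubb3, Dcx, Stmn2 and Elavl3. It had at most 1 of the cortical excitatory genes Eomes, Neurod2, Neurod6 and Tbr1. The rule found 677 barcodes of 27041 kept, 231 of 13108 in the Foxq1iECKO library and 446 of 13933 in the Foxq1flox/flox library.

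Brains of the genotypes Foxq1iECKO and Foxq1flox/flox were collected at that stage and enriched for endothelial cells with CD31 beads, with 1 library per genotype. The study's title concerns FOXQ1 in the endothelium of the central nervous system, and the labels call all barcodes endothelial cells. They do not spell out iECKO, nor give a Cre line, its induction or the number of embryos behind each library. A neuron reached these libraries only through a sort aimed at another cell type, so shares are of captured barcodes and not of the brain, and with 1 library per genotype no difference between genotypes has a replicate check.

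Neurons that release GABA, the main inhibitory transmitter, arise in the ventral forebrain from the ganglionic eminences, and many migrate tangentially into the cortex. Gsx2 acts in their progenitors, the Dlx homeodomain factors follow and switch on the Gad enzymes, and regional factors divide the output. Nkx2-1 and Lhx6 belong to the medial eminence, Isl1 and Six3 to the lateral eminence and striatum, and Nr2f2 and Prox1 are prominent in the caudal eminence.

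The 2 libraries held 72445925 UMIs in 15108 barcodes (Foxq1iECKO) and 76580165 UMIs in 15837 barcodes (Foxq1flox/flox). GABAergic barcodes contributed 910651 and 1674310 UMIs in Foxq1iECKO and Foxq1flox/flox, with a median of 3139 UMIs and 1813 genes in Foxq1iECKO, against 3239 UMIs and 1849.5 genes in Foxq1flox/flox. The libraries shared 270 barcode sequences, none of them a GABAergic barcode in both. Scrublet predicted 15 of the Foxq1iECKO and 26 of the Foxq1flox/flox GABAergic barcodes to be doublets, and they were kept in the values below. Levels are in CPM, the summed UMIs of a gene in a set of barcodes scaled by all UMIs of that set, and brackets give 95% counting intervals. Foxq1 itself was at 262 CPM in Foxq1iECKO and 472 CPM in Foxq1flox/flox endothelial barcodes. In GABAergic barcodes it was detected in 4.33% of Foxq1iECKO and 4.26% of Foxq1flox/flox, no more than in macrophage barcodes (4.38% and 6.17%, median depth 4866 and 5277.5 UMIs, against 3139 and 3239 in members), and is read as background.

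The genes of the rule are given as a description, since they chose the barcodes. Gad1, which makes GABA from glutamate, was at 510 CPM in Foxq1iECKO and 592 CPM in Foxq1flox/flox, and its partner enzyme Gad2 at 584 and 819 CPM. In Foxq1iECKO and Foxq1flox/flox members Dlx1 was at 928 and 1193 CPM, Dlx2 at 748 and 909 CPM, Dlx5 at 324 and 417 CPM, and the zinc finger factor Sp9 at 429 and 577 CPM. Both Gad genes were detected in 60.2% of Foxq1iECKO and 65.9% of Foxq1flox/flox members. At the threshold, 71 Foxq1iECKO and 125 Foxq1flox/flox members had exactly 2 of the 4 Dlx and Sp9 genes. A further 41 Foxq1iECKO and 107 Foxq1flox/flox barcodes had only 1 and met the rest of the rule. Dlx6os1, which the rule did not use, was at 321 CPM in Foxq1iECKO and 286 CPM in Foxq1flox/flox members with exactly 2. It was at 109 and 139 CPM in Foxq1iECKO and Foxq1flox/flox barcodes just outside with 1, and at 13.0 and 4.66 CPM in the 162 and 367 barcodes with none. Dlx6os1 thus fell off over the threshold with no gap at it. Of the members, 17 in Foxq1iECKO (7.36%) and 5 in Foxq1flox/flox (1.12%) carried 1 cortical gene.

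The label was checked on genes outside the rule, and members were set beside 2 groups of neurons. Cortical excitatory barcodes (at least 2 of the 4 cortical genes) numbered 704 in Foxq1iECKO and 544 in Foxq1flox/flox. Other neurons (neuron genes, with no Dlx, Sp9 or cortical gene of the rule) numbered 497 and 930. Both groups were thus chosen in part for few Dlx and Sp9 genes. Low levels of Dlx6os1, Dlx6 and Dlx1as in them may be built in by these gates. Lhx6, a LIM factor of medial-eminence interneurons, was detected in 26.8% of Foxq1iECKO and 24.9% of Foxq1flox/flox members, and Six3, a forebrain factor, in 28.6% and 30.7%. Slc32a1, the vesicular GABA transporter, was low, at 49.4 CPM and 18.2% of members in Foxq1iECKO against 69.9 CPM and 22.9% in Foxq1flox/flox. Hoxb3, a hindbrain gene, had no UMI in members of either library, with upper limits of 4.05 CPM in Foxq1iECKO and 2.20 CPM in Foxq1flox/flox. Vip, a peptide of mature caudal interneurons, likewise had none, with the same limits.

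Dlx6os1 (also known as Evf2), a long noncoding RNA of the Dlx5 and Dlx6 locus, ranked first among the genes higher than in each neuron set. It was at 516 CPM in Foxq1iECKO and 591 CPM in Foxq1flox/flox members, in 68.8% and 71.3% of them. In cortical barcodes it was at 1.01 and 0.749 CPM, and in other neurons at 4.42 and 3.004 CPM, in Foxq1iECKO and Foxq1flox/flox. Macrophage barcodes, which should lack it, had it in 0.528% and 0.693%. On mm10 the gene lies on the minus strand of chromosome 6 from 6820189 to 6871592 and spans Dlx6 (6863334 to 6868568, plus strand) without exon overlap. Dlx5 lies beyond its start, at 6877805 to 6882085. Its promoter windows are shown because it led the comparison with both neuron sets and because Dlx proteins are homeodomain factors, a class that binds the core TAATTA. RefSeq (GRCm38.p6) gives 2 windows of 250 bases before to 50 after a start, chr6:6869484-6869783 and chr6:6861634-6861933, both minus strand, with TAATTA in capitals:
Dlx6os1 window 1: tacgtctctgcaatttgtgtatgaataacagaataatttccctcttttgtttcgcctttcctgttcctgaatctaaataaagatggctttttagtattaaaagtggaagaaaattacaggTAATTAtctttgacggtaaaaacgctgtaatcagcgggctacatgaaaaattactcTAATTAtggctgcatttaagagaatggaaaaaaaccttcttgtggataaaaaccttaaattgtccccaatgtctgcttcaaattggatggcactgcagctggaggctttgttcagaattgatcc
Dlx6os1 window 2: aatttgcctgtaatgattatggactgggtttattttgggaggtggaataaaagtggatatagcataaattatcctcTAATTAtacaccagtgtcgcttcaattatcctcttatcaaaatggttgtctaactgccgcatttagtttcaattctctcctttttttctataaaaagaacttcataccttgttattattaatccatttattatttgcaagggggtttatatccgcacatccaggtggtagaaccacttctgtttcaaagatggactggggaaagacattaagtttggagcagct
The first window held TAATTA at positions 121 and 177 and the second at position 77, counted from its 5′ end. TAATTA is its own reverse complement, so 1 search covers both strands. It occurred in 1738 of all 32851 windows of this length (5.29%). Of the 56 genes higher in members than in both neuron sets, described next, 43 had windows. It occurred in 2 of their 63 windows (3.17%), both of Dlx6os1, and in none of the 5 windows of the 5 rule genes matched. The share among these genes was below that of all windows. It rests on 2 windows of the gene chosen for display, so it is no result about the 43 genes.

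Members were set against cortical and against other neurons within each library, and a gene was called when its ratio was at least 1.5 the same way, with the interval excluding 1, in both libraries. Genes of the rule were left out and genes had a mean of at least 50 CPM. These comparisons describe sets chosen by expression and carry no test. The mean is over members and the neuron set, so a gene made in one of them reaches the level through that set alone, and the direction of such a gene is fixed by the filter. Counts over gene lists below are therefore descriptions and support nothing. Over cortical neurons 159 of 4318 genes were higher (3.68%) and 168 lower (3.89%). Over other neurons 128 of 4368 were higher (2.93%) and 163 lower (3.73%), and 56 of 4163 genes were higher than in both (1.35%).

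Of the 20 listed genes around the Dlx factors, 17 were at level, and 9 were called higher over cortical and 11 over other neurons. Dlx6 was at 130 and 172 CPM in Foxq1iECKO and Foxq1flox/flox members and at 3.004 CPM or less in both neuron sets of both libraries. Dlx1as, at 98.8 and 105 CPM in Foxq1iECKO and Foxq1flox/flox members, overlaps Dlx1 exons on the opposite strand of chromosome 2. The strand setting of the counting was not among the sources read, so reads of Dlx1as and Dlx1 cannot be told apart.

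**Figure D1:**
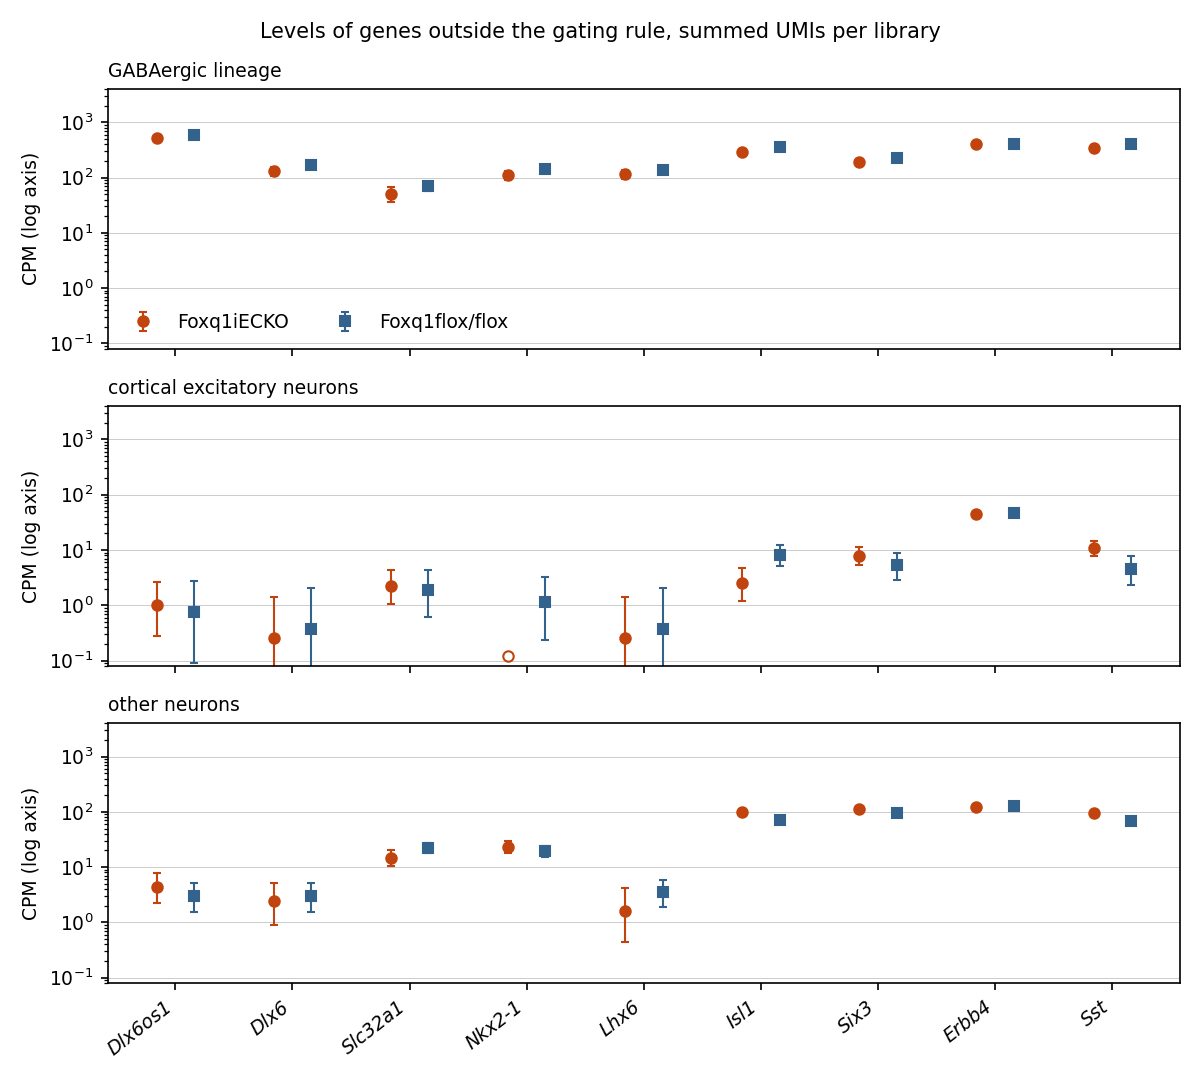
Levels of 9 genes outside the rule in CPM (log axis) in the GABAergic lineage (top), cortical excitatory neurons (middle) and other neurons (bottom), Foxq1iECKO as circles left of Foxq1flox/flox as squares, with exact Poisson 95% intervals; the open circle marks a level of 0. Dlx6os1, Dlx6, Lhx6 and Nkx2-1 lie above both neuron sets in both libraries.

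Genes of the medial eminence are given by their levels. Lhx6 was at 114 CPM in Foxq1iECKO and 135 CPM in Foxq1flox/flox members. Cortical neurons had 0.252 and 0.374 CPM, and other neurons 1.61 and 3.504 CPM, in Foxq1iECKO and Foxq1flox/flox. Nkx2-1, which specifies the medial eminence, was at 110 and 145 CPM in Foxq1iECKO and Foxq1flox/flox members. Cortical barcodes of Foxq1iECKO had no Nkx2-1 UMI (upper limit 0.931 CPM) and those of Foxq1flox/flox had 1.12 CPM. Other neurons had Nkx2-1 at 23.3 CPM in Foxq1iECKO and 19.3 CPM in Foxq1flox/flox. Sst, the peptide somatostatin of one interneuron class, was at 343 and 409 CPM in Foxq1iECKO and Foxq1flox/flox members, carried by 9.09% and 11.2% of them. It was at 10.9 and 4.49 CPM in cortical and 96.5 and 68.1 CPM in other neurons of Foxq1iECKO and Foxq1flox/flox. These genes were thus detected in a minority of members.

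Of the genes of the lateral eminence and striatum, 6 of 13 at level were higher over each neuron set, with 1 lower over other neurons (Ebf1). Isl1, a LIM factor of striatal precursors, was at 289 CPM in Foxq1iECKO and 364 CPM in Foxq1flox/flox members, against 2.52 and 8.24 CPM in their cortical and 98.5 and 71.8 CPM in their other neurons. Six3 was at 189 and 222 CPM in Foxq1iECKO and Foxq1flox/flox members, and at 7.82 and 5.24 CPM in cortical neurons. Among 12 caudal-eminence genes, 6 were at level. Nr2f2, Prox1 and Adarb2 were higher over cortical neurons, Cnr1 was lower, and Prox1 alone was higher over other neurons. Zic genes, transcription factors of the septum and other midline tissue, were also higher: Zic1 was at 482 and 381 CPM in Foxq1iECKO and Foxq1flox/flox members, against 206 and 166 CPM in cortical neurons.

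Genes listed for GABA neurons of the prethalamus, hypothalamus, midbrain and hindbrain were low in members. The 31 listed genes summed to 257 CPM in Foxq1iECKO and 232 CPM in Foxq1flox/flox members, and none had a mean of 50 CPM in them. Gata2, a selector of midbrain GABA neurons, was at 18.7 CPM in Foxq1iECKO and 22.1 CPM in Foxq1flox/flox members, against 68.4 and 114 CPM in their other neurons. The other neurons themselves held Gad2 at 144 and 233 CPM in Foxq1iECKO and Foxq1flox/flox, with no Dlx or Sp9 gene by their definition. Barcodes with Gad transcripts and no Dlx or Sp9 gene were thus among those to which members were compared.

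Guidance genes separated members from cortical neurons in both directions. Of the 37 listed, 24 were at level against cortical neurons, 3 higher and 8 lower. Against other neurons 23 were at level, 6 higher and 2 lower. Erbb4, the neuregulin receptor of migrating interneurons, was at 402 and 399 CPM in Foxq1iECKO and Foxq1flox/flox members. It was at 44.2 and 47.2 CPM in cortical and 123 and 130 CPM in other neurons. Epha3 and Epha5, ephrin receptors, lay between. Epha5 was at 269 and 324 CPM in Foxq1iECKO and Foxq1flox/flox members, below cortical neurons (552 and 590 CPM) and above other neurons (122 and 169 CPM). Cxcr4 and Ackr3, chemokine receptors of later cortical interneurons, were low in members. Ackr3 was at 23.1 and 35.8 CPM in Foxq1iECKO and Foxq1flox/flox members. Cxcr4 was at 15.4 and 9.56 CPM, detected in 3.90% and 3.36% of Foxq1iECKO and Foxq1flox/flox members, and in 9.46% and 9.85% of macrophage barcodes.

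Genes outside the regional lists were also among the highest. Nrxn3, a presynaptic adhesion protein, stood at log2 ratios of 4.41 and 3.88 over cortical and 2.14 and 1.84 over other neurons in Foxq1iECKO and Foxq1flox/flox. Sox1, a neural progenitor factor, stood at 2.79 and 4.04 over cortical neurons, Zfhx3 at 2.86 and 2.696, and Arl4d at 3.30 and 4.35. Over other neurons, the kainate receptor gene Grik3 stood at 2.05 and 1.86 and the semaphorin co-receptor gene Plxna2 at 1.66 and 2.00. A monoamine gene was among the 15 highest over each neuron set. Slc18a2, the vesicular monoamine transporter, was at 87.8 CPM in Foxq1iECKO and 125 CPM in Foxq1flox/flox members. It was at 9.59 and 10.5 CPM in cortical neurons and at 13.3 and 23.8 CPM in other neurons, in Foxq1iECKO and Foxq1flox/flox. The dopamine enzyme gene Th had only 3 and 4 UMIs in Foxq1iECKO and Foxq1flox/flox members. Excitatory genes were the lowest over cortical neurons. Neurod1, a factor of young cortical neurons, was at 5.49 and 2.39 CPM in Foxq1iECKO and Foxq1flox/flox members, against 541 and 497 CPM in their cortical neurons. Neurog2, Bhlhe22, Nhlh1 and Prdm8 were the next lowest over cortical neurons. Over other neurons Pou4f1, a POU factor, was lowest, at 1.10 and 2.39 CPM in Foxq1iECKO and Foxq1flox/flox members against 134.3 and 239 CPM in their other neurons, with Lhx9, Nhlh2, Ebf3 and Fabp7 next. Slc17a6, a vesicular glutamate transporter, was at 24.2 and 6.57 CPM in Foxq1iECKO and Foxq1flox/flox members, against 434 and 425 CPM in their cortical neurons.

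Members were then divided by regional genes, each set needing at least 2 of its genes. The first set was Nkx2-1, Lhx6 and Lhx8, the second Isl1, Ebf1, Zfp503, Six3 and Foxp2, and the last Nr2f1, Nr2f2 and Prox1. The first set alone held 10.4% [6.77, 15.1] of Foxq1iECKO and 11.7% [8.83, 15.01] of Foxq1flox/flox members. The second held 22.5% [17.3, 28.4] of Foxq1iECKO and 24.2% [20.3, 28.5] of Foxq1flox/flox members, and the last 18.2% [13.4, 23.8] and 19.3% [15.7, 23.3]. Several sets were met by 20.8% and 15.7%, and none by 28.1% and 29.1%, of Foxq1iECKO and Foxq1flox/flox members. Every regional share overlapped between libraries within its counting interval. By gene, Lhx8 was at 32.9 and 37.6 CPM, Ebf1 at 161 and 133 CPM, Zfp503 at 143 and 204 CPM and Foxp2 at 184 and 188 CPM in Foxq1iECKO and Foxq1flox/flox members. Nr2f1 was at 232 and 237 CPM, Nr2f2 at 709 and 649 CPM and Prox1 at 276 and 256 CPM. None of these passed the size used below between genotypes, and Lhx8 was under the level needed.

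Of the 3 sets, the first was all but absent from the neurons to which members were compared. Counting members that also met another set, it was met by 16.0% of Foxq1iECKO and 17.3% of Foxq1flox/flox members. No cortical barcode of either library met it, nor any other neuron of Foxq1iECKO, and 0.753% of the other neurons of Foxq1flox/flox did. The second set was met by 40.3% and 35.4% of Foxq1iECKO and Foxq1flox/flox members but also by 33.8% and 34.1% of other neurons. The last was met by 36.8% and 34.3% of members and by 41.9% and 29.2% of cortical neurons. The second and the last set thus name genes and not a region. The classes moved with depth: with members thinned to 2000 UMIs, several sets were met by 9.90% of Foxq1iECKO and 8.19% of Foxq1flox/flox, and none by 42.1% and 39.7%.

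**Figure D2:**
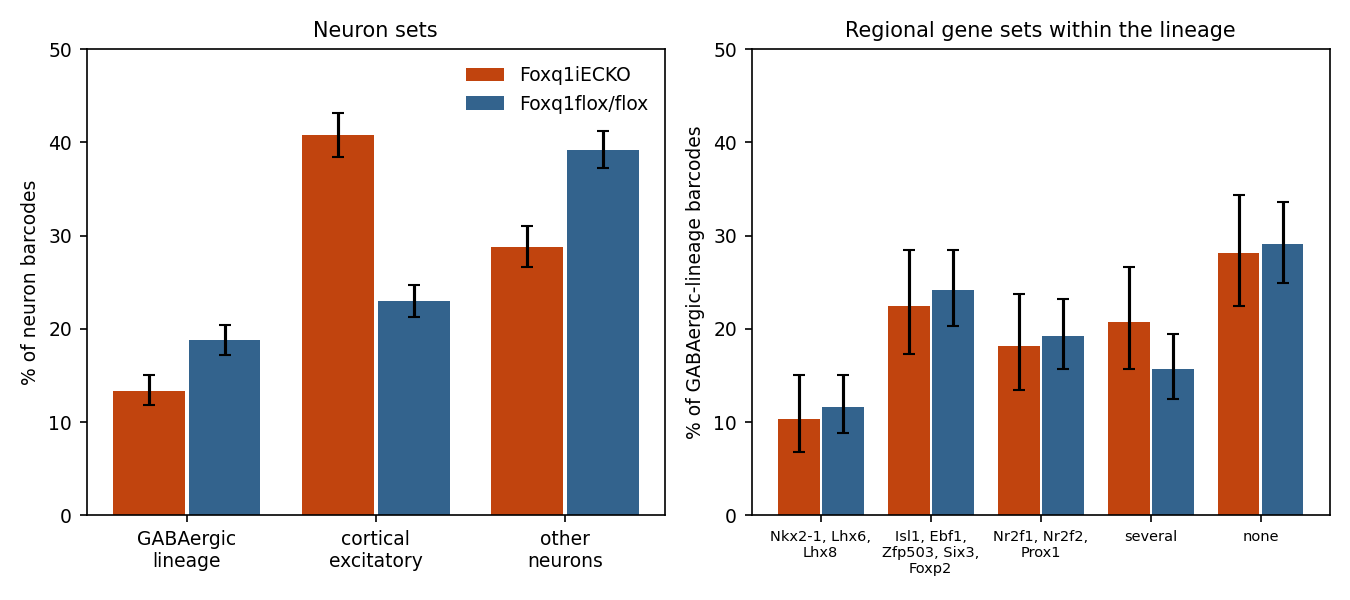
Left, shares of neuron barcodes (%) in the GABAergic lineage, cortical excitatory neurons and other neurons; right, shares of GABAergic-lineage barcodes (%) by regional gene set, Foxq1iECKO left of Foxq1flox/flox, bars with exact binomial 95% intervals. The lineage is 13.4% and 18.8% of neuron barcodes in Foxq1iECKO and Foxq1flox/flox, while every regional share overlaps between libraries.

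Pairs of regional genes were counted in the same members, and no difference between libraries was tested. Lhx6 was detected in 60.4% of 48 Nkx2-1-positive members of Foxq1iECKO, against 18.0% of its Nkx2-1-negative members. In Foxq1flox/flox it was in 64.1% of 92, against 14.7%. Isl1 was rarely found with Lhx6: it was in 11.3% of Lhx6-positive and 39.6% of Lhx6-negative members of Foxq1iECKO, and in 4.50% and 40.0% of Foxq1flox/flox. Six3 was found with Isl1, in 40.5% of Isl1-positive and 22.9% of Isl1-negative members of Foxq1iECKO, and in 55.4% and 19.5% of Foxq1flox/flox. Nr2f2 was in 70.4% of Nr2f1-positive and 25.3% of Nr2f1-negative members of Foxq1iECKO, and in 70.0% and 19.6% of Foxq1flox/flox. Other pairs stood differently in the libraries. Nr2f2 was in 37 of 74 Isl1-positive and 36.9% of Isl1-negative members of Foxq1iECKO, but in 37.4% and 37.8% of Foxq1flox/flox. It was in 25.0% of Nkx2-1-positive and 45.4% of Nkx2-1-negative members of Foxq1iECKO, and in 35.9% and 38.1% of Foxq1flox/flox. Lhx6-positive members were no deeper, with a median of 2978 UMIs against 3271 in Foxq1iECKO and 3168 against 3249 in Foxq1flox/flox. Isl1-positive members were deeper, with 3441.5 UMIs against 2991 in Foxq1iECKO and 3501 against 3121 in Foxq1flox/flox. Nkx2-1-positive members had 3438.5 UMIs against 3052 in Foxq1iECKO and 3291.5 against 3226 in Foxq1flox/flox. Nr2f1-positive members had 3439 against 2992.5 in Foxq1iECKO and 3203 against 3239 in Foxq1flox/flox. The part of depth in these pairs was not tested.

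Genes outside the 3 sets followed them. Sox6, a factor of medial-eminence interneurons, was at 690 CPM in Foxq1iECKO and 643 CPM in Foxq1flox/flox members of the Nkx2-1 set, against 155 and 139 CPM in the Isl1 set. Erbb4 was at 836 and 807 CPM in the Nkx2-1 set and at 114 and 125 CPM in the Isl1 set. Meis2, a homeodomain factor of lateral-eminence and striatal cells, had the opposite order. It was at 109 CPM in the Nkx2-1 set of each library, and at 1834 CPM in Foxq1iECKO and 2373 CPM in Foxq1flox/flox members of the Isl1 set. Bcl11b, known in striatal projection neurons, was highest in the Nkx2-1 set, at 1381 and 1368 CPM, against 674 and 748 CPM in the Isl1 set, in Foxq1iECKO and Foxq1flox/flox.

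Sst was highest in members that met no regional set, at 1278 CPM in Foxq1iECKO and 849 CPM in Foxq1flox/flox, against 497 and 382 CPM in the Nkx2-1 set and 149 and 646 CPM in the Nr2f2 set. These values rest on few barcodes: Sst was detected in 21 members of Foxq1iECKO, where a single barcode held 65 of its 312 UMIs, and in 50 of Foxq1flox/flox, where one held 76 of 684. Members of no set were shallower, with a median of 2553 UMIs in Foxq1iECKO and 2862.5 in Foxq1flox/flox, and the part of depth in their class was not tested. Sst was detected in 17.7% of Lhx6-positive and 5.92% of Lhx6-negative members of Foxq1iECKO, and in 17.1% and 9.25% of Foxq1flox/flox. With Nkx2-1 it was found in 2 of 48 members of Foxq1iECKO and 7 of 92 of Foxq1flox/flox. Sst was thus in 4.17% and 7.61% of Nkx2-1-positive members, against 10.4% and 12.1% of Nkx2-1-negative members, of Foxq1iECKO and Foxq1flox/flox. Npy, a peptide often made by Sst interneurons, was found with it: in 28.6% of 21 Sst-positive and 3.33% of Sst-negative members of Foxq1iECKO, and in 28.0% of 50 and 4.29% of Foxq1flox/flox. Zic1 was at 522 CPM in Foxq1iECKO and 49.3 CPM in Foxq1flox/flox members of the Nr2f2 set, a difference that was not tested.

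**Figure D3:**
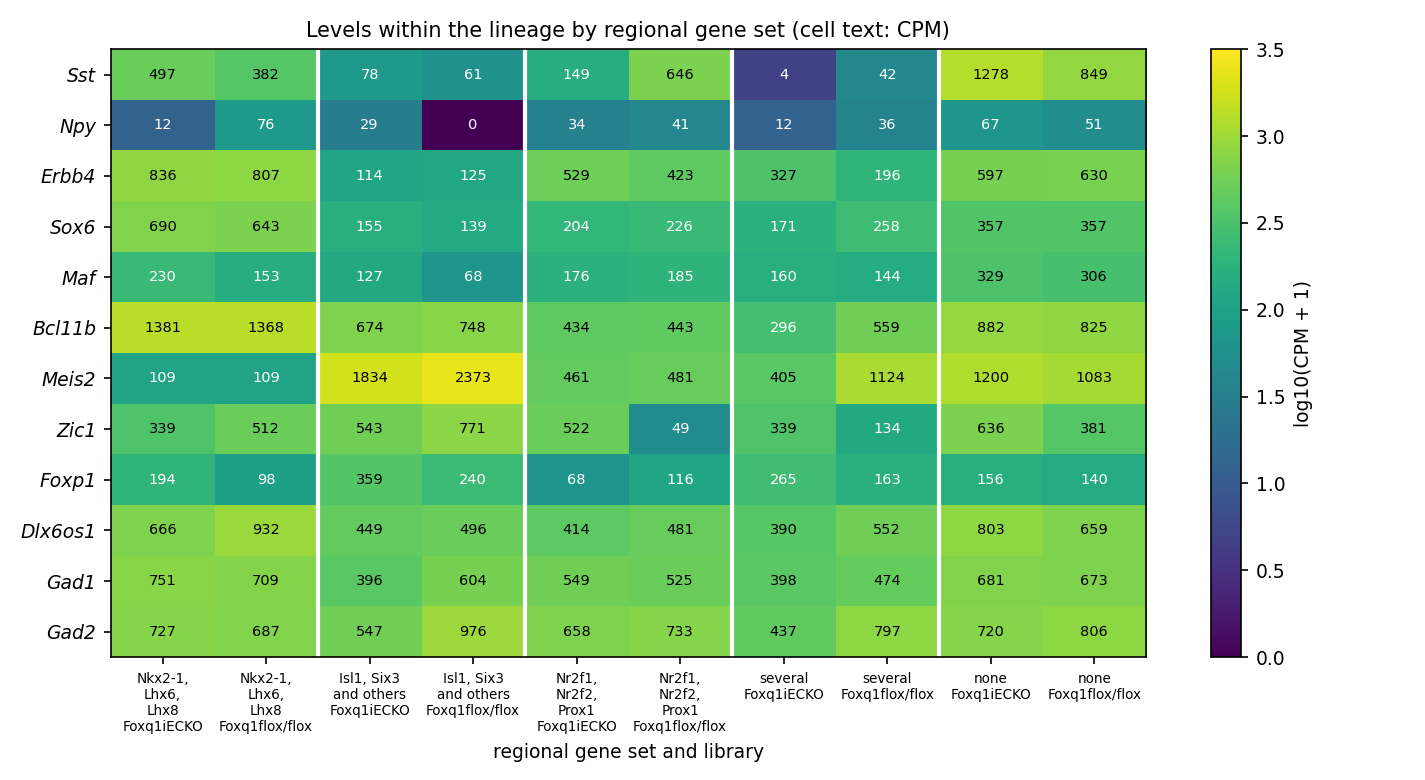
Levels of 12 genes in members by regional gene set (columns, Foxq1iECKO left of Foxq1flox/flox), with CPM written in each cell and colour giving log10(CPM + 1). Erbb4, Sox6 and Bcl11b are highest in the Nkx2-1, Lhx6 and Lhx8 set, Meis2 in the Isl1 set, and Sst in members that met no set.

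Some members carried cell cycle transcripts and are called cycling below. At least 3 of Mki67, Top2a, Cenpf, Ube2c, Birc5 and Cdk1 were detected in 23.8% [18.5, 29.8] of Foxq1iECKO and 22.9% [19.1, 27.0] of Foxq1flox/flox members, and in 22.8% and 20.1% after thinning to 2000 UMIs. Cortical neurons had 25.7% and 20.8%, other neurons 26.0% and 14.5%, and macrophages 41.5% and 38.9%, in Foxq1iECKO and Foxq1flox/flox. Cycling members were deeper, with a median of 4394 UMIs in Foxq1iECKO and 4697 in Foxq1flox/flox, against 2826.5 and 2916 for the rest. They held 6 of the 15 predicted doublets of Foxq1iECKO and 11 of the 26 of Foxq1flox/flox. Free RNA of cycling cells was not removed, and its part in these calls was not tested.

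Cycling and other members were compared for genes chosen after their values were seen. Ccnd2, a G1 cyclin, was at 1929.7 CPM in cycling and 639.6 CPM in other members of Foxq1iECKO, and at 2408 and 682 CPM in Foxq1flox/flox. Its log2 ratio was 1.59 [1.41, 1.78] in Foxq1iECKO and 1.82 [1.69, 1.95] in Foxq1flox/flox. Insm1, a factor of basal progenitors, stood at 1.11 and 1.77. Gsx2, a progenitor factor at 19.8 and 23.9 CPM over all members, stood at 0.80 [-0.71, 2.31] in Foxq1iECKO, an interval that includes 0, and at 3.84 [2.48, 5.55] in Foxq1flox/flox. Olig2, made by ventral progenitors, stood at 2.54 and 1.80 on 10 and 29 UMIs in cycling members of Foxq1iECKO and Foxq1flox/flox.

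The Dlx genes differed in sign between cycling and other members. Dlx1 was higher in cycling members, with log2 ratios of 0.32 [0.12, 0.52] in Foxq1iECKO and 0.54 [0.41, 0.67] in Foxq1flox/flox. Dlx2 stood at 0.12 [-0.11, 0.35] and 0.49 [0.34, 0.64], and Dlx5 was lower, at -0.55 [-0.94, -0.18] and -0.34 [-0.58, -0.10]. Gad2 stood at -0.46 and -0.51, and Gad1 was far lower at -1.46 and -1.70. The young-neuron genes Dcx, at -1.44 and -1.28, and Isl1, at -1.64 and -1.37, were also lower. Nkx2-1 stood at -0.29 [-0.94, 0.34] in Foxq1iECKO and 0.81 [0.43, 1.18] in Foxq1flox/flox. Dlx1, Dlx2, Dlx5, Gad1, Gad2 and Dcx were genes of the rule, so their spread is among barcodes that already had enough of them.

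**Figure D4:**
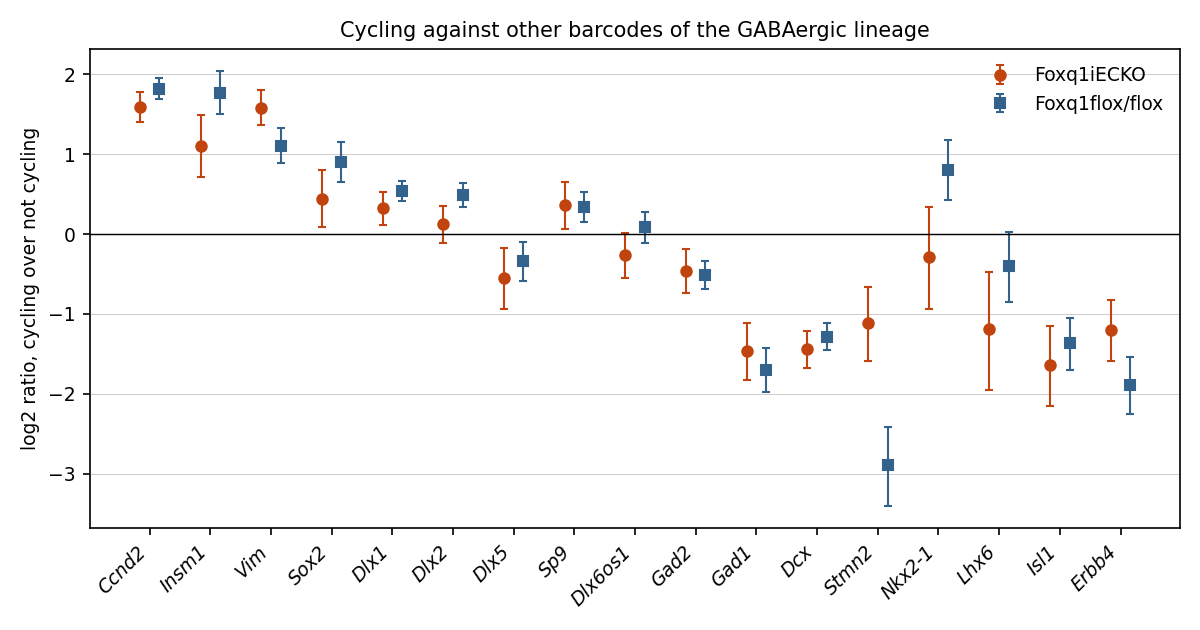
Log2 ratio of CPM in cycling over other members for 17 genes, Foxq1iECKO as circles left of Foxq1flox/flox as squares, with exact conditional 95% counting intervals and a line at 0. Ccnd2, Insm1 and Vim lie above 0 in both libraries, and Gad1, Dcx, Stmn2, Isl1 and Erbb4 below.

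Between genotypes the lineage was a smaller share of the Foxq1iECKO library. It was 1.76% [1.54, 2.00] of kept barcodes in Foxq1iECKO and 3.20% [2.91, 3.51] in Foxq1flox/flox, a ratio of 0.551 [0.468, 0.647]. Among all neuron barcodes (1726 in Foxq1iECKO and 2371 in Foxq1flox/flox) it was 13.4% and 18.8%, a ratio of 0.711 [0.604, 0.836]. Cortical excitatory neurons moved the other way, at 40.8% of Foxq1iECKO and 22.9% of Foxq1flox/flox neuron barcodes, while other neurons were at 28.8% and 39.2%. Of GABAergic and cortical barcodes together, 24.7% in Foxq1iECKO and 45.1% in Foxq1flox/flox were GABAergic. The ratio of kept barcodes ran from 0.489 to 0.589 over the alternative gates. Dissection, pooling of embryos and the yield of the sort cannot be told apart from genotype here, nor can fewer cells be told from fewer captured.

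Gene levels in members were compared between genotypes by size: a ratio of at least 1.5 either way with the interval excluding 1, at a mean of at least 50 CPM. Of 4313 genes, 109 were higher (2.53%) and 58 lower (1.34%) in Foxq1iECKO, together 3.87%, and the median log2 ratio was -0.02. The same rule called 3.37% of the 3921 genes also at level in cortical neurons and 5.39% of the 3969 in other neurons. With TMM scaling the split in the lineage was 97 higher and 81 lower. Of the 109 higher genes, 59 were over 5 times higher in an endothelial, macrophage, mesenchyme, erythroid or pericyte gate of the same library than in members, and 5 of the 58 lower genes were. The share among all 4313 genes is not given here, so these counts are no result about the called genes. Without the barcodes that carried 2 or more gate genes of another cell type, 106 genes were higher and 104 lower. Without cycling barcodes they were 111 and 104, and after thinning 125 and 119.

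Markers of other cell types moved with genotype inside the lineage, and not there alone. Barcodes with at least 2 gate genes of another cell type were 27.3% of Foxq1iECKO and 18.4% of Foxq1flox/flox members. They were 34.0% and 24.7% of other neurons, and 26.0% and 22.1% of cortical neurons. The 12 mesenchyme markers summed to 2184 CPM in Foxq1iECKO and 1126 CPM in Foxq1flox/flox members, and at least 2 mesenchyme gate genes were found in 21.2% and 11.2% of them. The 10 pericyte markers summed to 710 and 112 CPM in Foxq1iECKO and Foxq1flox/flox, led by Rgs5 at 440 and 62.7 CPM. At least 2 pericyte gate genes were found in 5.63% and 1.79% of members. The 12 macrophage markers summed to 322 and 188 CPM, and the 14 endothelial markers to 392 and 480 CPM, in Foxq1iECKO and Foxq1flox/flox, with Cldn5 at 0 in Foxq1iECKO members. The 12 radial glia markers summed to 1667 and 1030 CPM, led by Vim, in Foxq1iECKO and Foxq1flox/flox. The part of these cell types in the gene differences below was not tested beyond the values without barcodes of other cell types. Those values left out barcodes with at least 2 gate genes of the endothelial, macrophage, mesenchyme or pericyte type, and kept those with radial glia genes. At least 2 radial glia gate genes were found in 45.5% of Foxq1iECKO and 38.8% of Foxq1flox/flox members, and their part was not tested. Erythroid markers were near 0, at 8.78 and 15.5 CPM in Foxq1iECKO and Foxq1flox/flox.

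Genes over 5 times higher in a non-neural gate, such as Rgs5 and Abcc9 of the pericyte list (log2 ratios of 2.81 and 2.49), were left out of the 20 genes named next. Of these 20, the largest difference was in Fabp7, a fatty acid binding protein of radial glia. It was at 159 CPM in Foxq1iECKO and 29.9 CPM in Foxq1flox/flox members, a log2 ratio of 2.41 [1.94, 2.91]. It was detected in 14.3% and 6.28% of Foxq1iECKO and Foxq1flox/flox members, and a single Foxq1iECKO barcode held 47 of its 145 UMIs. The other neurons had it too: cortical neurons were at 351 CPM in Foxq1iECKO and 59.2 CPM in Foxq1flox/flox (log2 ratio 2.57), and other neurons at 941 and 185 CPM (2.34).

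Among the other 9 genes named as higher, Clstn2 (calsyntenin 2, a synaptic adhesion protein) stood at 1.23 [0.78, 1.68] on the log2 scale, with 107 CPM in Foxq1iECKO and 45.4 CPM in Foxq1flox/flox members. Plxna1, a semaphorin co-receptor, was at 114 CPM in Foxq1iECKO and 63.3 CPM in Foxq1flox/flox, a log2 ratio of 0.85 [0.45, 1.26], with -0.03 in cortical and -0.03 in other neurons. Cmss1 stood at 1.02 and Dbi, an acyl-CoA binding protein, at 0.94, with 0.98 and 1.21 in cortical neurons. Over 16 alternative settings Cmss1 lost its call in 2 and was lowest at 0.27, and Dbi lost its call in 1 and was lowest at 0.80. Add3 stood at 1.07, the Notch-related imprinted gene Dlk1 at 0.88, the intermediate filament Nes at 0.90 and the mitochondrial tRNA ligase Lars2 at 0.83. Dlk1 stood at 0.43 in cortical and 0.48 in other neurons, and Lars2 at 0.41 and 0.53, with intervals above 0. Nes stood at 0.17 in cortical and 0.65 in other neurons and Add3 at -0.23 and 0.36, with intervals above 0 in other neurons alone. Lars2 was not called in 5 of 16 alternative settings, and was at 0.067 after thinning and 0.21 without barcodes with genes of other cell types. Add3 was at -0.086 without barcodes with genes of other cell types, and Dlk1 and Nes were at -0.13 and -0.92 after thinning. Magel2, an imprinted gene, was at 224 CPM in Foxq1iECKO and 138 CPM in Foxq1flox/flox members, a log2 ratio of 0.70 [0.42, 0.98]. It stood at -0.55 in cortical and -0.56 in other neurons, and a single barcode held 15 of its 204 UMIs in Foxq1iECKO and of its 231 in Foxq1flox/flox. It was not called in 4 of 16 alternative settings.

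Of the 10 genes named as lower, Pou3f2, a POU factor of young neurons, was at 102 CPM in Foxq1iECKO and 185 CPM in Foxq1flox/flox members, a log2 ratio of -0.86 [-1.21, -0.52], with -0.21 in cortical and -0.25 in other neurons. Odf2, of the centriole, stood at -0.97 [-1.57, -0.41] and Plcb1, a phospholipase of receptor signalling, at -0.89 [-1.40, -0.40]. The cell cycle genes Cdca7 and Knl1 stood at -0.86 and -0.74, and Knl1 was at 0.061 after thinning. Cdca7 stood at 0.51 [0.09, 0.96] in cortical and 0.40 [-0.08, 0.88] in other neurons. Paqr3 stood at -0.83, with -0.40 in cortical and -0.62 in other neurons, and was called lower in other neurons too. Edrf1 stood at -0.75, with -0.25 in cortical and -0.55 in other neurons, and Wdr37 at -0.73, with -0.26 and -0.16. Pax6, made in lateral-eminence progenitors and olfactory bulb precursors, was at 57.1 CPM in Foxq1iECKO and 98.5 CPM in Foxq1flox/flox members, a log2 ratio of -0.79 [-1.27, -0.33]. It stood at 0.95 in cortical and 0.79 in other neurons, and in members at -0.75 after thinning and -0.54 without barcodes of other cell types, called in neither. Sox21, a progenitor factor, had the same ratio, -0.79, on the same totals (52 UMIs in Foxq1iECKO and 165 in Foxq1flox/flox) in other barcodes (27 and 70, against 30 and 55 with Pax6), with 0.88 in cortical neurons, and was at 0.43 after thinning. Of the 20 genes named, 7 stayed called in all 16 alternatives: Clstn2, Fabp7, Odf2, Plcb1, Plxna1, Pou3f2 and Wdr37. Single genes were called there without the level needed, so alternatives in that level alone repeated the main values. Of the 7, only Pou3f2, at a mean of 144 CPM, was at 100 CPM or more.

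**Figure D5:**
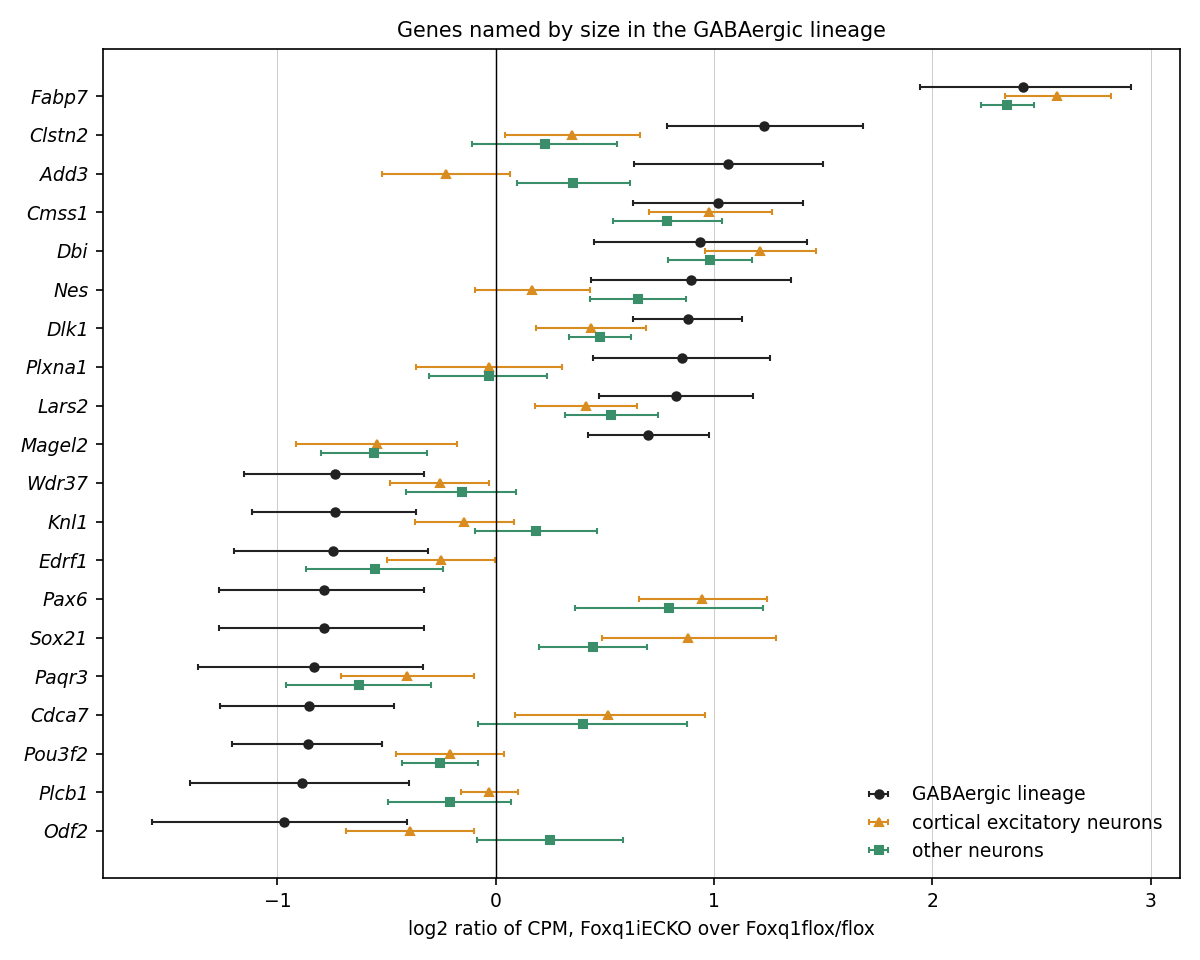
Log2 ratio of CPM, Foxq1iECKO over Foxq1flox/flox, for the 20 genes named by size in the GABAergic lineage (circles), with the same genes in cortical excitatory neurons (triangles) and other neurons (squares) and 95% counting intervals. Fabp7, Cmss1, Dbi, Dlk1 and Lars2 lie above 0 with their intervals in the 3 sets, and Paqr3 and Edrf1 below. Pax6, Sox21, Magel2 and Cdca7 lie on opposite sides of 0 in the lineage and in both neuron sets. The interval of Cdca7 in other neurons includes 0.

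The lists of the lineage's own genes held few calls. With 3.87% of all genes called, few calls fall on lists of this size, so these counts are no result about the lists. None of the 17 Dlx programme genes at level passed in either direction, with a median log2 ratio of -0.22 against -0.02 over all genes tested. That median was 0.010 after thinning, so the shift did not hold there. None of the 10 medial-eminence genes passed (median -0.13), and 1 of 13 lateral-eminence genes was lower, Pax6 (median -0.22). The 5 caudal genes had none (median 0.05). None of the 24 guidance genes passed (median -0.05), nor any of the 30 genes of neuronal cytoskeleton and synapse (median -0.14). The rule genes Gad2, at -0.49 [-0.64, -0.34], and Dlx1, at -0.36 [-0.48, -0.25], were below 0 and under the fold used. One GABA gene of 9 at level passed, the chloride importer Slc12a2, at 0.59 (235 CPM in Foxq1iECKO and 156 CPM in Foxq1flox/flox). It lay at the edge of the fold used, and a single Foxq1iECKO barcode held 36 of its 214 UMIs. No GABA gene was called with TMM or median of ratios scaling, with 500 UMIs or at most 10% mitochondrial UMIs needed, with regional classes weighted equally, without cycling barcodes or with no cortical gene allowed.

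Further calls were in the lists of progenitor, G2/M and early response genes. Of 16 progenitor genes at level, 4 were higher (Fabp7, Hes1, Vim and Nes) and 1 lower (Pax6), with a median of 0.05. Hes1, a Notch target, was at 94.4 CPM in Foxq1iECKO and 41.8 CPM in Foxq1flox/flox, and Vim, an intermediate filament, at 825 and 423 CPM, both over 5 times higher in a non-neural gate. Of 36 G2/M genes 3 were lower: Ube2c at -0.68, Kif20b at -0.65 and Ect2 at -0.60 (median -0.14). After thinning the G2/M median was 0.19, with 5 genes higher and none lower, and without cycling barcodes 1 of 10 was lower. None of 17 S-phase genes passed (median -0.02). Of 22 immediate early and dissociation genes 4 were higher, Fosl2, Ccn1, Fosb and Klf2, at 0.81 to 1.03 (median 0.31). All but Fosb of these 4 were over 5 times higher in a non-neural gate. None of 9 hypoxia and glycolysis genes passed (median 0.22), with Pgk1 at -0.02 and Pgam1 at 0.32. Zic4, of the septal list, was at 123 CPM in Foxq1iECKO and 78.2 CPM in Foxq1flox/flox members, a log2 ratio of 0.65.

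The remaining lists had few genes at level. None of 5 interneuron and striatal subtype genes passed (median -0.16), nor any of 11 stress genes (0.03), 5 p53 and cell death genes (-0.03) or 4 genes of vessel cues made by neural cells (-0.07). Vegfa, the main growth factor for endothelium, was at 57.1 CPM in Foxq1iECKO and 53.2 CPM in Foxq1flox/flox members. The single interferon gene at level, B2m, was higher at 0.75, and it was over 5 times higher in a non-neural gate.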

How the data were processed

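UMI counts per gene and barcode, whole numbers with no normalization, were deposited by the authors for 2 libraries of CD31-sorted E12.5 mouse brain cells. The tools fastp 0.24.0 and STARsolo 2.7.11b and the build mm10 stand in the submitters' processing notes. Not given in the sources used here are the annotation, the strand setting and the barcode filter. Each file held 31253 genes, and every barcode had at least 500 UMIs.

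Members followed the rule at the head of the results, and the members, gene lists and comparisons were chosen with earlier results of these data known. Counts were summed per set and library and scaled to CPM on all UMIs. Levels have exact Poisson, shares exact Clopper-Pearson and ratios exact conditional binomial 95% intervals, which cover counting error only. No test between genotypes was possible with 1 library each. A gene was called at a 1.5-fold ratio with the interval excluding 1 and a mean of at least 50 CPM. Other neurons and cortical neurons were gated by the same genes, and macrophage, mesenchyme, pericyte, erythroid and endothelial gates needed at least 3 of their genes.

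The 10 highest and 10 lowest called genes between genotypes, and the 15 highest and 5 lowest against neurons, were ranked by the interval limit nearest 0. Left out were mitochondrial, ribosomal, haemoglobin, sex-linked and unnamed predicted genes and genes over 5 times higher in a non-neural gate. In each list up to 4 members were named, called ones first. Other genes named by region, cell cycle or guidance were chosen after their values were seen.

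Doublets were predicted with Scrublet (scanpy 1.11.5, expected share 8%; 4.24% of kept Foxq1iECKO and 4.05% of kept Foxq1flox/flox barcodes) and kept in the main values. Thinning drew 2000 UMIs per barcode and left out shallower ones, 29 Foxq1iECKO and 43 Foxq1flox/flox members, and as an alternative the rule was applied to the thinned counts. Promoter windows came from RefSeq (GRCm38.p6), gene positions from GENCODE M21 (mm10). The calling rule was run on simulated totals drawn with counting error only. That run had no spread between barcodes, so it cannot show how the rule performs where single barcodes hold many UMIs. Sums and intervals were made with scipy 1.17.1 and pandas 2.3.3 under Python 3.11.15 (numpy 2.4.6) and drawn with matplotlib 3.10.9. Scaling factors alone came from edgeR 4.0.16 and DESeq2 1.42.0 in R 4.3.3. Alternatives were other depth, mitochondrial, Dlx, doublet and cell type filters, thinning, TMM and median of ratios scaling, other levels and folds, equal weights, and no cycling barcodes. A few genes are not reported here.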

Additional observations from a re-analysis of the deposited data

Results flagged for a closer look

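The GABAergic share of neuron barcodes and the cortical share differed in opposite directions between genotypes. The GABAergic ratio, Foxq1iECKO over Foxq1flox/flox, was 0.711, and the cortical ratio was 1.78. The difference between these ratios was not tested, since each genotype has 1 library. Both are shares of the same neuron barcodes, so a higher share of 1 set lowers the others.

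Pax6 was lower in Foxq1iECKO in the GABAergic lineage, with a log2 ratio of -0.79. It was higher in cortical neurons, at 0.95 (95.1 CPM in Foxq1iECKO and 49.4 CPM in Foxq1flox/flox), and in other neurons, at 0.79 (39.0 and 22.5 CPM). Sox21 was lower in the lineage at -0.79 and higher in cortical neurons at 0.88 (51.0 CPM in Foxq1iECKO and 27.7 CPM in Foxq1flox/flox). These differences between sets of neurons were not tested.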

How the results depend on the processing

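No paired analysis was possible because each genotype has 1 library. Under every gate tried the lineage's share ratios between libraries kept their direction, from 0.489 to 0.589 for the ratio of kept barcodes. Differences between libraries in the regional and cycling shares kept direction or moved by less than their counting interval. Some regional shares themselves moved further. With members thinned, the share meeting no set rose from 28.1% [22.4, 34.4] to 42.1% in Foxq1iECKO. In Foxq1flox/flox it rose from 29.1% [25.0, 33.6] to 39.7%. The share meeting several sets fell from 20.8% to 9.90% and from 15.7% to 8.19%. Shares of single sets and the cycling share stayed within their intervals. Counts of genes by size moved with the level needed. At a mean CPM of 20 or more, 316 genes were higher and 174 lower between genotypes, 308 and 280 over cortical neurons, and 206 and 315 over other neurons. At 100 or more these were 36 and 11, 82 and 91, and 76 and 66, and with no filter on level 624 and 308 between genotypes. At 2-fold, 75 were higher and 103 lower over cortical and 40 and 54 over other neurons. With 3 of 4 Dlx and Sp9 genes needed, 177 were higher and 100 lower between genotypes. The lower count was 104 without cycling barcodes, 119 after thinning and 104 without barcodes with genes of other cell types. List medians above the median of all genes numbered 8 of 17, and 13 after thinning. Over the 20 named genes and 16 alternatives, 286 of 320 values kept direction and call, 29 lost the call and 5 reversed. Alternatives in the level needed repeated the main values of these genes, so their part of the 286 was fixed in advance. After thinning Dlk1 was at -0.13, Nes at -0.92, Knl1 at 0.061 and Sox21 at 0.43, and Add3 was at -0.086 without barcodes with genes of other cell types. The cause was not tested. Requiring no cortical gene at all was added after the data were seen. Depth limits the gene values: Odf2 rested on 33 UMIs in Foxq1iECKO and 119 in Foxq1flox/flox, where the interval reaches from -1.57 to -0.41.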
